A study of Mus musculus with 7 samples.

Results

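The 9 Schwann cell myelin genes Mbp, Pmp22, Prx, Mag, Ncmap, Drp2, Cnp, Gldn and Mal were picked by name from the 54309 genes of the table, by a rule that uses no measured value. They were followed through 7 libraries of mouse dorsal root ganglia. All 9 had a mean of 1 TPM or more (TPM is a length-corrected abundance that sums to the same total in every library) and were tested, as were 14800 genes in all. The animals were male C57bl/6 mice 6 to 8 weeks old, with no transgene named in the labels, and every animal had a sciatic nerve injury. Injury and ganglion collection fell at Zeitgeber time 20 (ZT20, in the dark phase of a standard light cycle) in 4 libraries and at Zeitgeber time 8 (ZT8, in its light phase) in 3, with 72 h between them. Cells of the lumbar L4 to L6 ganglia were freed with enzymes and spun through an albumin layer that favours neurons, so the glia measured here are those that came through with the neurons. No uninjured group is among the libraries used here, whether a library holds 1 animal or several is not given in the sources used here, and p-values measure only the spread between these libraries.

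Schwann cells wrap larger axons of peripheral nerves in myelin, a stack of plasma membrane held together by a small set of abundant proteins. PMP22 and MBP belong to the compact layers. MAG, CNP and periaxin lie in the uncompacted parts, toward the axon, in the cytoplasmic channels and on the outer surface respectively. After a nerve is cut or crushed, Schwann cells beyond the injury switch off these genes and turn into repair cells, while the ganglion lies on the cell body's side of the injury. In ganglia the axon stem close to the cell body is myelinated by Schwann cells, and the cell bodies are wrapped by satellite glia, which make no myelin.

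Several libraries stood apart or went against their labels. In ZT20 replicates 3 and 4 the Y-linked genes Ddx3y, Eif2s3y and Uty were at 0 although the animals are labelled male, and Xist, the RNA of the inactive X chromosome, reached 1.08 to 2.30 TPM in ZT20 replicates 2 to 4. The count of genes above 0 was 24192 to 25238 at ZT20, 22541 and 22973 in ZT8 replicates 1 and 3, and 18297 in ZT8 replicate 2. Library identifiers were numbers at ZT20 and letters at ZT8, so any batch that this naming stands for and the injury time cannot be told apart. The sequencing depth is unknown. Results for the myelin genes are therefore given below also without the libraries in question.

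The myelin genes did not move together between the injury times. Drp2, which encodes the dystrophin-related protein that periaxin anchors at the Schwann cell surface, was 1.64-fold higher at ZT20 on the log2(TPM + 1) scale and was the only 1 of the 9 past the threshold (limma, Benjamini-Hochberg adjusted p under 0.05 over all tested genes). Of all tested genes, 12.8% were called higher and 3.61% lower at ZT20, and the 1 of 9 called higher and 0 of 9 called lower are near these shares. At an unadjusted p under 0.05 the count was again 1 of 9, against 5122 of 14800 genes. The differences were positive for 4 members and negative for 5, with a median of −0.13 on the log2 scale beside 0.23 over all tested genes. The ZT20 libraries all lay above the ZT8 libraries for Drp2 and Gldn and for 24.5% of all tested genes, and all lay below for none of the members and for 8.72% of all tested genes.

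**Figure D1:**
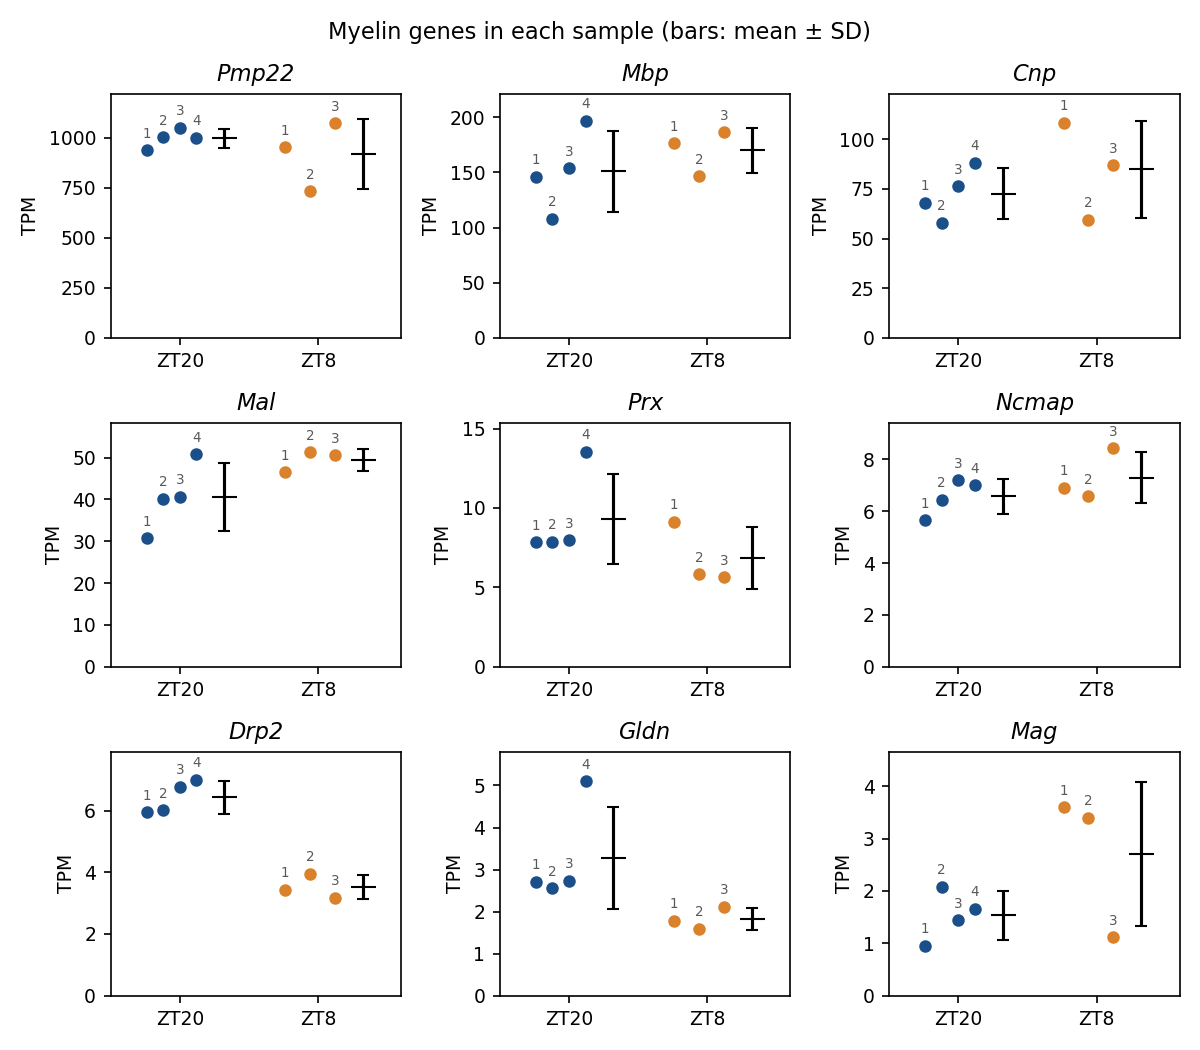
TPM of each myelin gene (vertical axes, each starting at 0) in the 4 ZT20 libraries (blue) and the 3 ZT8 libraries (orange), with replicate numbers beside the points and the mean ± SD as bars. Only Drp2 and Gldn have every ZT20 point above every ZT8 point, and ZT20 replicate 4 stands above the rest of its group for Prx and Gldn.

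The levels of the 9 genes spanned from Pmp22 at a mean of 963.4 TPM over the 7 libraries to Mag at 2.04 TPM. Between them came Mbp at 159 TPM, Cnp at 77.9 TPM, Mal at 44.4 TPM, Prx at 8.25 TPM, Ncmap at 6.89 TPM, Drp2 at 5.18 TPM and Gldn at 2.66 TPM. The first 4 steps of this order held in all 7 libraries. Prx was above Ncmap in 5 of 7 libraries, Ncmap above Drp2 in 6 and Gldn above Mag in 5, so these neighbours were not separated beyond their spread, whereas Drp2 was above Gldn in all 7. The summed TPM of the 9 genes ran from 1205 over 1233 and 1347 to 1369 at ZT20 (replicates 1, 2, 3 and 4), and it was 1307, 1010 and 1418 at ZT8. The groups overlapped, with means of 1288 ± 81.6 (SD, n = 4) and 1245 ± 211 (SD, n = 3). Pmp22 alone made up 72.9% to 81.3% of that sum at ZT20 and 72.4% to 75.7% at ZT8. Without it the sum was 231 to 371 TPM at ZT20 and 279 to 356 TPM at ZT8, which also overlap. All 9 genes together took 0.101% to 0.142% of a library's TPM. In bulk samples such as these, fewer cells of a type and less RNA per cell cannot be told apart.

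Among the proteins of compact myelin, Pmp22, the 4-pass membrane protein whose gene dosage underlies Charcot-Marie-Tooth neuropathy, had 937, 1002, 1050 and 999 TPM at ZT20 and 951, 732 and 1073 TPM at ZT8. The low value of ZT8 replicate 2 widened the ZT8 spread, and the groups overlapped. The log2 difference was 0.13 ± 0.14 (SE) with a 95% interval of −0.18 to 0.45 (limma adjusted p = 0.516). Mbp, the basic protein that seals the cytoplasmic faces of the sheath, had 146, 108, 154 and 197 TPM at ZT20 and 177, 147 and 187 TPM at ZT8. ZT20 replicate 4 was the highest library of all and ZT20 replicate 2 the lowest. Its difference was −0.19 ± 0.20 (SE), interval −0.64 to 0.26 (limma adjusted p = 0.513), and −0.041 without ZT20 replicate 2 (limma adjusted p = 0.876). For both genes, differences of either sign lie within the interval.

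Mal, a 4-pass proteolipid of raft-rich membrane, had 30.7, 40.1, 40.6 and 50.8 TPM at ZT20. At ZT8 it had 46.5, 51.3 and 50.6 TPM, so that 3 ZT20 libraries lay below all of ZT8 and ZT20 replicate 4 did not. The difference was −0.30 ± 0.17 (SE), interval −0.70 to 0.096 (limma adjusted p = 0.253). Ncmap, named as a noncompact myelin-associated protein, had 5.66, 6.44, 7.20 and 7.00 TPM at ZT20 and 6.90, 6.57 and 8.43 TPM at ZT8. With a highest library only 1.49 times the lowest, it was among the steadiest of the 9, next to Pmp22 at 1.47 times. Its difference was −0.13 ± 0.19 (SE), interval −0.56 to 0.30 (limma adjusted p = 0.653).

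On the uncompacted side, Mag encodes a sialic acid-binding adhesion protein of the membrane next to the axon. It had 0.953, 2.08, 1.44 and 1.66 TPM at ZT20 and 3.60, 3.40 and 1.12 TPM at ZT8, so ZT8 replicate 3 sat inside the ZT20 range while the other ZT8 libraries were above it. At levels this close to the filter the highest library was 3.78 times the lowest, the widest span of the 9 genes. The difference was −0.49 ± 0.34 (SE), interval −1.26 to 0.29 (limma adjusted p = 0.334), and −0.85 without ZT8 replicate 3 (limma adjusted p = 0.0929). Cnp, an enzyme that keeps cytoplasmic channels in the sheath open, had 68.0, 57.9, 76.3 and 88.2 TPM at ZT20 and 108, 59.5 and 86.9 TPM at ZT8. The groups overlapped almost fully, and the difference was −0.20 ± 0.22 (SE), interval −0.70 to 0.31 (limma adjusted p = 0.552). It was −0.43 without ZT8 replicate 2 (limma adjusted p = 0.135) and −0.0027 without ZT8 replicate 1 (limma adjusted p = 0.994).

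Prx and Drp2 encode partners, since periaxin holds DRP2 and the dystroglycan complex in patches where the outer membrane touches the sheath. Prx had 7.84, 7.86, 7.96 and 13.6 TPM at ZT20 and 9.12, 5.82 and 5.62 TPM at ZT8. ZT20 replicates 1, 2 and 3 lay close together and below ZT8 replicate 1, and the higher ZT20 mean of 9.30 ± 2.83 (SD, n = 4) against 6.85 ± 1.96 (SD, n = 3) was raised by ZT20 replicate 4. The difference was 0.38 ± 0.26 (SE), interval −0.21 to 0.98 (limma adjusted p = 0.322), and 0.21 (limma adjusted p = 0.616) without that library. Drp2 had 5.94, 6.00, 6.77 and 7.00 TPM at ZT20 and 3.44, 3.95 and 3.17 TPM at ZT8, with a clear gap between the groups. Its difference was 0.72 ± 0.19 (SE), interval 0.28 to 1.15 (limma adjusted p = 0.0371). Drp2 was 0.516 to 0.851 times Prx at ZT20 and 0.377 to 0.679 times Prx at ZT8 in TPM, ranges that overlap.

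The call on Drp2 was lost in 16 of 21 alternative analyses, while its difference stayed positive in all 21. Without ZT20 replicates 3 and 4, in which Ddx3y, Eif2s3y and Uty were at 0, it was 0.63 (limma adjusted p = 0.363), and without ZT20 replicates 2, 3 and 4 it was 0.62 (limma adjusted p = 0.758). Leaving out each library in turn gave 0.66 to 0.79, and only without ZT8 replicate 2 did the adjusted p stay under the threshold (0.0181), with values of 0.0647 to 0.123 otherwise. Median-ratio scaling gave 0.51 (limma adjusted p = 0.104) and quantile normalization 0.39 (limma adjusted p = 0.194). A correction of each library for transcript length and GC content brought the difference to 0.079 (limma adjusted p = 0.81).

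Gldn encodes gliomedin, the Schwann cell ligand that gathers sodium channels at the node of Ranvier. It had 2.71, 2.56, 2.73 and 5.10 TPM at ZT20 and 1.78, 1.59 and 2.12 TPM at ZT8. The groups did not overlap, but ZT20 replicate 4 was far above the rest of its group. The difference of 0.56 ± 0.27 (SE), interval −0.049 to 1.17, did not pass the threshold (limma adjusted p = 0.173), and it was 0.38 (limma adjusted p = 0.389) without ZT20 replicate 4.

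**Figure D2:**
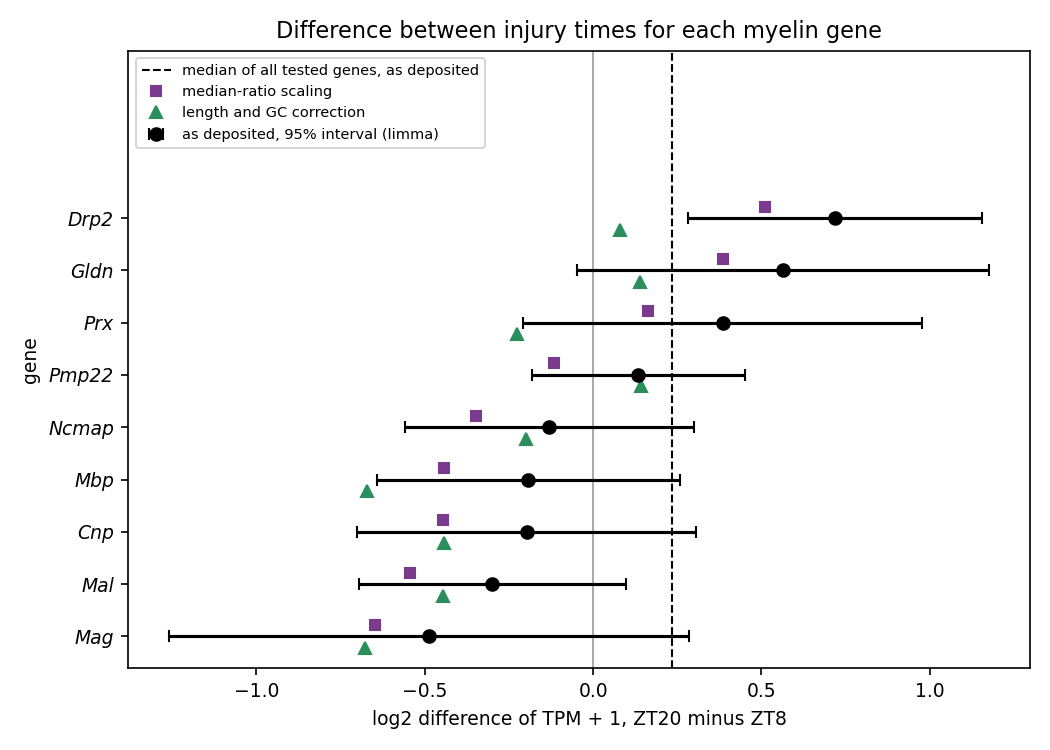
Log2 difference of TPM + 1, ZT20 minus ZT8, for each myelin gene (rows), with black points and bars for the values as deposited and their 95% limma interval, squares after median-ratio scaling, triangles after correction for length and GC content, and a dashed line at the median of all tested genes. Only the Drp2 interval, 0.28 to 1.15, lies clear of 0, and its triangle falls to 0.079.

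Without ZT20 replicates 3 and 4 the other 8 members kept the sign of their difference and none was called in limma, where 0 of the 9 also had an unadjusted p under 0.05. Mbp was then at −0.43, Mal at −0.48, Mag at −0.51, Cnp at −0.39, Ncmap at −0.23, Pmp22 at 0.095, Prx at 0.20 and Gldn at 0.37. With ZT20 replicate 1 alone against ZT8, a fit that takes the spread from the ZT8 libraries, their signs were again the same, from −0.84 for Mag to 0.40 for Gldn. Without ZT8 replicate 2, the library with the fewest genes above 0, Pmp22 turned to −0.020, while Mbp was at −0.29, Mal at −0.27, Mag at −0.32, Cnp at −0.43, Ncmap at −0.19, Prx at 0.30 and Gldn at 0.50, none of them called in limma.

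Transcript length moved with the direction of change. In mouse annotation GENCODE M21 the longest transcripts of Drp2, Prx, Mbp and Gldn are 7135, 5433, 4797 and 4658 bases, and those of the other 5 members range from 1822 (Pmp22) to 2904 (Cnp). A boundary of 4000 bases, chosen after these values were seen, leaves 3 of the 4 longer members with a positive difference and 1 of the 5 shorter ones. Over all genes the median difference was 0.55 for 4999 longer genes, 84.7% of them positive, and 0.085 for 9746 shorter genes, 57% of them positive. After each library was corrected for length and GC content, the Drp2 difference was 0.079, that of Gldn was 0.14 and that of Prx turned to −0.23, none of them past the threshold (limma adjusted p = 0.81, 0.753 and 0.556). The same correction took Mbp from −0.19 to −0.67 ± 0.15 (SE), which then passed (limma adjusted p = 0.0326), and left the short Pmp22 at 0.14 (limma adjusted p = 0.482). Whether length itself plays a part in these differences was not tested beyond this correction.

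**Figure D3:**
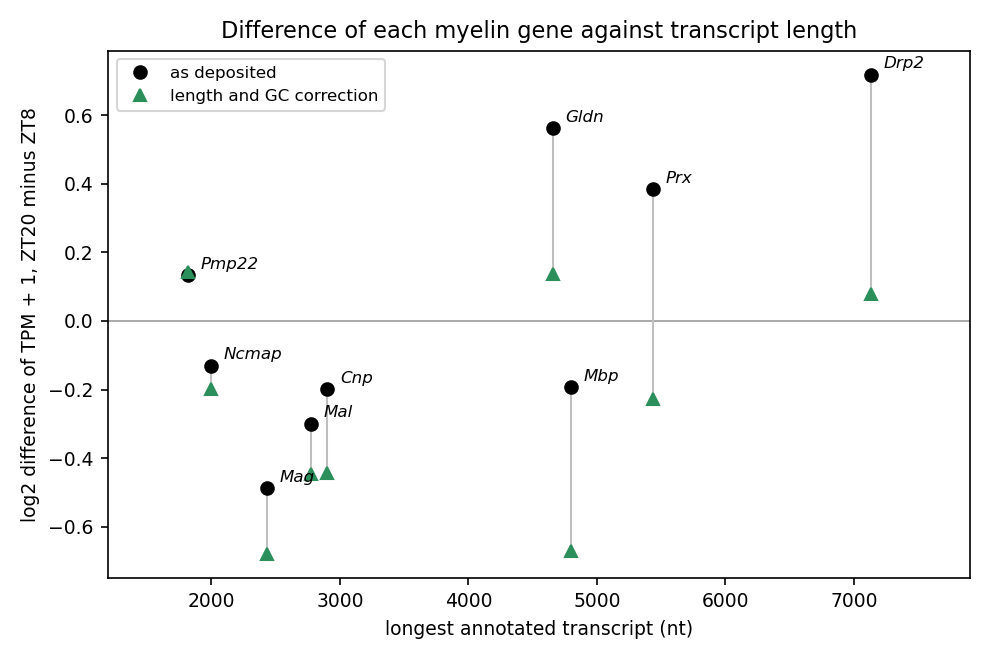
Log2 difference of TPM + 1, ZT20 minus ZT8 (vertical), against the longest annotated transcript in bases (horizontal, linear scale), for the myelin genes as deposited (circles) and after correction for length and GC content (triangles), with a grey line joining the values of each gene. The longer members Drp2, Gldn and Prx lie highest as deposited, and their triangles lie at 0.079, 0.14 and −0.23.

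The members were also compared by their profile, meaning log2(TPM + 1) in each of the 7 libraries minus the gene's own mean. The root mean square distance of a member from the mean profile of the 9 was smallest for Ncmap, at 0.167, and largest for Mag, at 0.46. Of 10261 other genes that averaged 5 TPM or more, 731 were nearer to that mean profile than Ncmap and 7383 nearer than Mag. The closest genes were Tifa at a distance of 0.0382, Rnf41 at 0.0435, Tgfb2 at 0.0444, Slc35f6 at 0.049 and 4833439L19Rik at 0.0545, followed by Epb41l4a, Rnf14, Vps35, Pxk and Asph at up to 0.0633. The mean profile of the members ran from −0.15 in ZT20 replicate 1 to 0.29 in ZT20 replicate 4, with the ZT8 libraries at −0.13 to 0.092 between them. ZT20 replicate 4 was the highest library for 4 members (Mbp, Prx, Drp2 and Gldn), and ZT20 replicate 1 was the lowest for 3 (Mag, Ncmap and Mal).

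**Figure D4:**
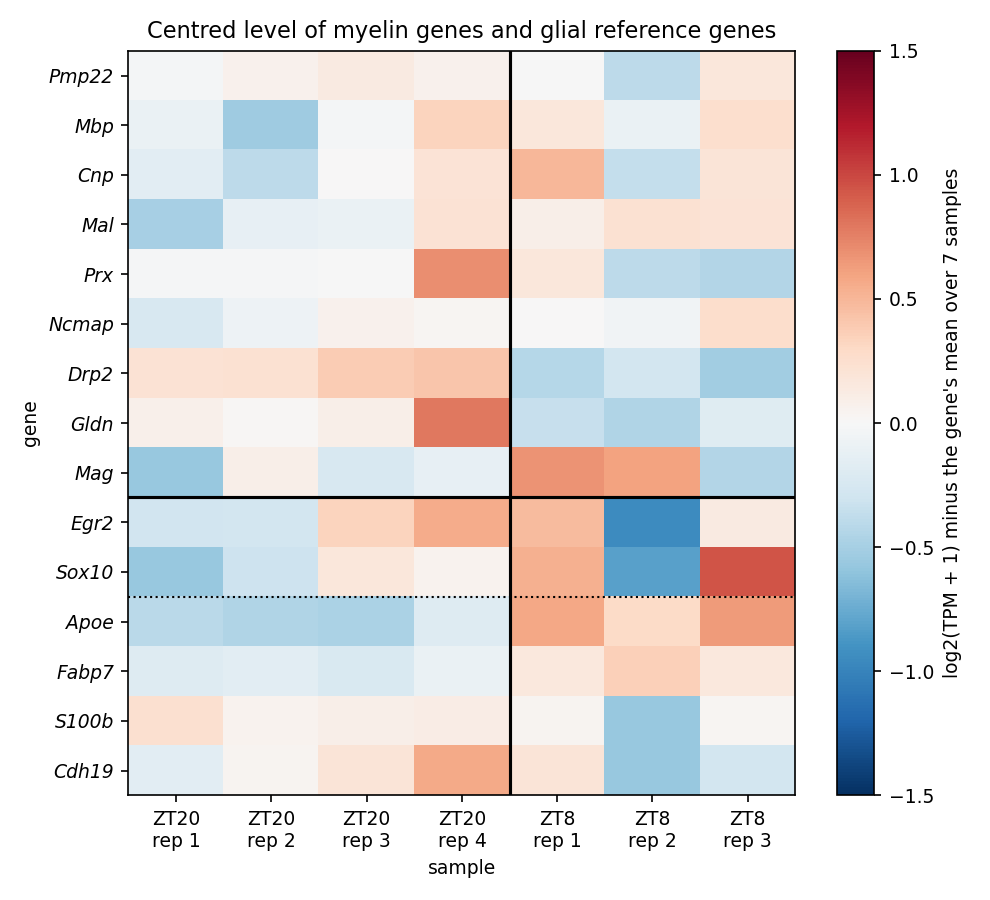
Log2(TPM + 1) of each gene (rows) in each library (columns) minus the gene's mean over the 7 libraries, for the 9 myelin genes, for Egr2 and Sox10, and for satellite glia (Apoe, Fabp7) and Schwann lineage (S100b, Cdh19) genes, with colour giving the difference in log2 units. The rows do not share a pattern, and among the members Drp2 and Gldn are lower in every ZT8 library than in every ZT20 library.

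Promoter sequence is shown for 3 of the 4 members in which letters of a known myelin regulator occur (the other is Mag), since EGR2 (Krox20) and SOX10 switch on the myelin genes of Schwann cells. The RefSeq promoter table, on mouse build GRCm38.p6, matched 7 of the 9 members with 13 start sites. It held no entry for Mbp or Drp2. The 250 bases before the start are printed 5′ to 3′ on the gene's strand, with capitals marking the letters found: CCCACGC, the reverse complement of the EGR letters GCGTGGG, at 161 bases before the start of Prx (chr7:27499074-27499323, plus strand), GCGTGGG at 35 bases before a start of Ncmap (chr4:135385673-135385922, minus strand), and the SOX letters ACAAAG at 167 bases before the start of Cnp (chr11:100574689-100574938, plus strand).
Prx: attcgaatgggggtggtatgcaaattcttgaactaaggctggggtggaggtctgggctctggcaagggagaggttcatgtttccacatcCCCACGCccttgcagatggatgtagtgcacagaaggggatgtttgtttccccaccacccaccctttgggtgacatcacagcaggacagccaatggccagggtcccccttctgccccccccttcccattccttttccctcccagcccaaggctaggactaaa
Ncmap: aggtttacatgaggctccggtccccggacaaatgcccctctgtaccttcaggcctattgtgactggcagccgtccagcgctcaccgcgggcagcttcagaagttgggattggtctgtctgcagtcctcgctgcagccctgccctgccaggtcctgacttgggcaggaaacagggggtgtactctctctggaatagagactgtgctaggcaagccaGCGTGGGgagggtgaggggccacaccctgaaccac
Cnp: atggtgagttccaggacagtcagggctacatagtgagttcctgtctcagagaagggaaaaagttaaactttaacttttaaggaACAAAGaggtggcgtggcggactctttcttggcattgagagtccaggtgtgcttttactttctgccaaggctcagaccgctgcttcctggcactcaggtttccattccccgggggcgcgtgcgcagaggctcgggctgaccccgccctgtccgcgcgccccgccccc

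Searched on both strands of windows of the same length, GCGTGGG occurred in 4.3% of 32851 promoters in the table and in 2 of the 13 windows of the members, 1 of Prx and 1 of Ncmap. ACAAAG occurred in 16.5% of all promoters and in 3 of the 13, 1 of Cnp and 2 overlapping windows of Mag that hold the same site, and ACAATG in 10.7% of all and in none of the 13. The E-box CACGTG, to which CLOCK and BMAL1 bind, occurred in 6.02% of all promoters and in none of these windows. No window held matches to more than 1 of these motifs. Prx, Ncmap, Cnp and Mag, whose windows carry these letters, had differences of 0.38, −0.13, −0.20 and −0.49, none past the threshold.

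Around the 9 genes, 14 other proteins of the myelin sheath and node were listed, of which 13 were tested. Of these, 3, Nrcam, Tspan2 and Utrn, were called higher at ZT20 and 2, Cryab among them, lower, with a median difference of 0.22 beside 0.23 over all tested genes.

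Utrn, the utrophin that sits in the same dystroglycan complex as DRP2 and is also made by many other cells, had 55.6 to 78.8 TPM at ZT20 and 34.6 to 41.6 TPM at ZT8. Its difference was 0.75 ± 0.16 (SE; limma adjusted p = 0.0176), and −0.0098 after correction for length and GC content. Dag1, the dystroglycan gene, named here after its values were seen, had a difference of 0.22 ± 0.24 (SE; limma adjusted p = 0.537). Nrcam, an adhesion protein of the node that neurons also make, had 87.1, 74.1, 98.4 and 109 TPM at ZT20 and 49.4, 45.4 and 52.0 TPM at ZT8, a difference of 0.89 ± 0.15 (SE; limma adjusted p = 0.00988). Tspan2, a tetraspanin of myelinating glia, differed by 0.98 ± 0.24 (SE; limma adjusted p = 0.029). Cryab, a small heat shock protein found in Schwann cells, fell by 0.45 ± 0.13 (SE; limma adjusted p = 0.0456). These calls depended on the processing. After the length and GC correction Nrcam was at 0.32 (limma adjusted p = 0.144), Tspan2 at 0.63 (limma adjusted p = 0.141) and Cryab at −0.37 (limma adjusted p = 0.121), and the whole list had 0 genes called higher and 1 lower. Of 21 alternatives, 4 ended the call on Nrcam, 12 that on Tspan2, 15 that on Cryab and 8 that on Utrn. Without ZT20 replicates 3 and 4, where limma called 0 of all tested genes and 2378 had an unadjusted p under 0.05, Nrcam was at 0.71, Tspan2 at 0.83, Utrn at 0.56 and Cryab at −0.48.

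Of 20 myelination regulators 18 were tested, with 1 called higher, 1 called lower and a median difference of 0.33. The gene that rose was Adam22, the axon's receptor for LGI4, a Schwann cell signal needed for myelination. It had 126, 178, 128 and 154 TPM at ZT20 and 36.1, 68.9 and 27.0 TPM at ZT8, a difference of 1.81 ± 0.29 (SE; limma adjusted p = 0.00795). Its ligand gene Lgi4, named after its values were seen, differed by 0.71 (limma adjusted p = 0.422). Nab2, a corepressor that binds EGR2, fell by 0.96 ± 0.21 (SE; limma adjusted p = 0.021), a call lost in 9 of 20 alternatives, among them without ZT20 replicate 1, 3 or 4, where it was at −0.96, −1.04 and −0.94 (limma adjusted p = 0.0585, 0.0544 and 0.0702). Adam22 kept its call in 19 of 21 alternatives. The others were the fits without ZT20 replicates 3 and 4 and without 2, 3 and 4, in which no gene was called, and its difference there was 1.85 (limma adjusted p = 0.129) and 1.61 (limma adjusted p = 0.595). Egr2 itself had 12.4, 12.5, 19.7 and 23.1 TPM at ZT20 and 21.9, 7.53 and 16.9 TPM at ZT8, and Sox10, the factor that marks the whole Schwann lineage, had 5.35, 6.63, 9.64 and 8.76 TPM and 12.7, 4.36 and 17.1 TPM. Both overlapped between the groups, with differences of 0.19 (limma adjusted p = 0.731) and −0.38 (limma adjusted p = 0.526). Sox10 passed the threshold in 2 alternatives, at −0.90 without ZT8 replicate 2 (limma adjusted p = 0.041) and at −1.75 with a neuronal marker score as covariate (limma adjusted p = 0.0241).

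The label Schwann cell was checked against markers of the other myelinating cell and of the cells around it. Mbp, Mag, Cnp and Mal are also made by oligodendrocytes of the central nervous system. None of 10 oligodendrocyte markers reached a mean of 1 TPM, and the list summed to 1.17 to 1.71 TPM at ZT20 and 1.79 to 6.09 TPM at ZT8. Olig2, Opalin and Nkx2-2 were at 0 in all 7 libraries, and Mog was above 0 only in ZT20 replicate 1 at 0.048 TPM. Others were not silent. In ZT8 replicate 2, the library with the sum of 6.09 TPM, Nkx6-2 reached 4.54 TPM and Sox8 1.535 TPM. Nkx6-2 had a mean of 0.986 TPM over the 7 libraries. Myrf reached 0.898 TPM in ZT20 replicate 3. Of 10 Schwann cell identity genes that are not myelin proteins, 9 were tested and 2, Scn7a and Gfra3, were called higher at ZT20. Of the 9 differences 6 were positive, beside 66.4% of all tested genes, with a median of 0.38 beside 0.23. With median-ratio scaling 1 of the 9 was called higher and 1 lower, with a median of 0.14. The cell type behind these calls was not tested. The list summed to 1633 to 2142 TPM at ZT20 and 1001 to 1631 TPM at ZT8, led by Ngfr at 908 to 1341 TPM and 535 to 936 TPM, which sensory neurons also make. Satellite glia markers summed to 7141 to 8640 TPM at ZT20 and 11930 to 14640 TPM at ZT8, ranges that do not overlap, and 2 of 10, Apoe and Fabp7, were called lower and 0 higher. That sum was mostly Apoe, with mean TPM of 6701 at ZT20 and 12400 at ZT8, and over the 10 markers 5 differences were positive, with a median of −0.023. Apoe, the lipid carrier that leads that list, fell by 0.88 ± 0.13 (SE; limma adjusted p = 0.00657). With 1 library left out, the list had 1 gene called lower (without ZT8 replicate 1 or any single ZT20 replicate) to 3 (without ZT8 replicate 3). With no filter it had 0 called in limma, where 3 had an unadjusted p under 0.05.

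Neuronal markers summed to 24850 to 30510 TPM at ZT20 and 20530 to 26680 TPM at ZT8, with 3 of 15 called higher (Elavl4, Scn9a and Scn10a). Of all tested genes 12.8% were called higher. The median difference of the list was 0.28, beside 0.23 over all tested genes. After the length and GC correction 1 of the 15 was called higher, with a median of 0.069. With median-ratio scaling 3 were, with a median of 0.033. Macrophage markers summed to 414 to 963 TPM at ZT20 and to 2521, 638 and 898 TPM at ZT8, with Mrc1 called higher and C1qa lower among 11 tested. In limma 0 of the 11 were called with no filter, with a neuronal score as covariate and without ZT20 replicate 1, 3 or 4 alone. In those fits 2 or 3 had an unadjusted p under 0.05. Of the fibroblast and endothelial markers 6 of 10 were tested and 0 called in the limma fit, with 1 at an unadjusted p under 0.05. With the mean log2 level of the Schwann identity genes as a covariate, the Drp2 difference was 0.73 (limma adjusted p = 0.0831) and Cnp passed the threshold at −0.61 ± 0.12 (SE; limma adjusted p = 0.0237). With a neuronal marker score as covariate the Drp2 difference was 0.84 (limma adjusted p = 0.0879). The part of these other cell types in the differences of the myelin genes was not otherwise tested.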

How the data were processed

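RNA was sequenced from 4 ZT20 and 3 ZT8 libraries. The authors deposited length-corrected abundances (TPM) for 54309 genes by Ensembl identifier. The submitters' processing notes name FastQC 0.11.9, Trim Galore 0.6.6, Salmon 1.6.0, DESeq2 1.34.0 and build GRCm39, without their roles. Column names gave each column's sample, and 0 columns were unused. TPM keeps no depth, so counting error is unknown, and a rise in abundant genes lowers all other values. How reads of overlapping genes were assigned is not given in the sources used here. Mbp, Prx, Ncmap, Cnp and Gldn overlap a gene on the opposite strand in GENCODE M21, so their values are less certain.

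Log2(TPM + 1) of genes averaging 1 TPM or more was fitted with limma 3.58.1 (lmFit, eBayes with intensity trend, R 4.3.3) over all 7 libraries, two-sided, with Benjamini-Hochberg adjustment over all 14800 genes and a threshold of 0.05. Fold changes on this scale understate those of low genes. The script was tested on simulated data. Length and GC content came from GENCODE M21 (GRCm38), known for 99.63% of tested genes, and entered a loess correction with a span of 0.3. Promoters came from RefSeq on GRCm38.p6, a build other than that of the notes, so the coordinates printed with the promoters hold for GRCm38.p6 and no coordinates of the deposited genes are given. Tables and figures were made with data.table (version 1.17.8), pandas 2.3.3 and matplotlib 3.10.9 in Python 3.11.15.

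The members and the lists were chosen with earlier results of these data known. Named were all members, called genes of the sheath and regulator lists with Egr2 and Sox10, at most the 3 most abundant genes of other lists, and the 10 genes of most similar profile. Dag1, Lgi4 and the called genes of the other lists were named after their values were seen. List counts cover every listed gene, and some of those genes are not reported here. Alternatives were a pseudocount of 0.1, no filter, a filter at 5 TPM, scaling by median ratios or by quantiles, removal of mitochondrially encoded genes, the replicate number as a block, array weights, no trend, the length and GC correction, Schwann identity and neuronal scores as covariates, and libraries left out. Replicate numbers occur in both groups but belong to different samples and were not used as pairs.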

Additional observations from a re-analysis of the deposited data

Results flagged for a closer look

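Of 18 values examined in the 4 ZT20 libraries, 2 had a sample far from the rest, where chance gives about 0.9. For Prx the gap between ZT20 replicate 4 (13.6 TPM) and its nearest neighbour (7.96 TPM) took up a share of 0.979 of the whole ZT20 range. For Gldn the gap between the same library (5.10 TPM) and its nearest neighbour (2.73 TPM) took up 0.932. Both shares exceed Dixon's 95% critical value for 4 samples. By the same rule 1045 of 14800 tested genes had a ZT20 library far from the rest. ZT20 replicate 4 was the far-high library for 105 of them, or 0.709% of the tested genes. It was also among the ZT20 libraries in which the Y-linked genes Ddx3y, Eif2s3y and Uty were at 0. The part of that in the Prx and Gldn values was not tested.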

How the results depend on the processing

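Among 187 values of the 9 members under 21 alternatives, 163 kept their direction and their side of the threshold, 16 lost the Drp2 call, 2 gained a call and 6 changed sign. Over all genes 2433 were called (1899 higher, 534 lower). The count was 1178 with no filter, 1174 with the replicate block, 3899 with array weights, 1304 after the length and GC correction (528 higher, 776 lower), 1271 with the Schwann score and 1169 with the neuronal score. It was 723 (without ZT20 replicate 3) to 3047 (without ZT8 replicate 2) with 1 library left out. It was 0 in limma without ZT20 replicates 3 and 4 (2378 at an unadjusted p under 0.05) and 0 without ZT20 replicates 2, 3 and 4 (1155). With scaling by median ratios 1095 were higher and 1265 lower, and with quantiles 1023 and 814. These scalings brought the median difference of all genes from 0.23 to 0.014 and 0.0046.

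Of the members 1 was called. The count was 0 in limma with no filter, a filter at 5 TPM, scaling by median ratios, scaling by quantiles, the replicate block, the neuronal score and without ZT20 replicates 3 and 4 or 2, 3 and 4, where 1, 1, 4, 3, 3, 2, 0 and 0 members had an unadjusted p under 0.05. It was 0 to 1 with 1 library left out. Same-number correlations were −0.014, 0.15 and 0.083. ZT20 replicate 2 correlated best with ZT8 replicate 2 (0.153), and ZT20 replicate 3 with ZT8 replicate 1 (0.15). Taken from deviations around the means of 4 and 3 libraries, these values cannot decide whether any samples were paired. The replicate block left Drp2 at 0.68 (limma adjusted p = 0.16). Summed TPM went from 43.3 higher at ZT20 to −171 with median-ratio scaling, −26.3 without ZT20 replicates 3 and 4, −39.9 without 2, 3 and 4, and −74.1 (without ZT8 replicate 2) to 129.7 (without ZT8 replicate 3) with 1 library left out.

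Sign changes were as follows. Pmp22 was −0.12 with median-ratio scaling, −0.027 with the Schwann score, −0.26 with the neuronal score and −0.020 to 0.26 with 1 library left out. Prx was −0.23 and Utrn −0.0098 after the length and GC correction. With the neuronal score Mag was 0.096. Egr2 was −0.039 with median-ratio scaling, −0.076 with quantile normalization, −0.011 with array weights, −0.014 after the length and GC correction, −0.51 with the Schwann score, −0.93 with the neuronal score, −0.17 without ZT20 replicates 3 and 4 and also −0.17 without 2, 3 and 4, and −0.22 to 0.49 with 1 library left out. The causes were not tested. The depth is unknown, so the counting error of low genes such as Mag and Gldn cannot be given.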

Other observations

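Among enzymes that make myelin lipids, none of them a member, 12 were listed and tested. Of these, 1 was called higher and 1 lower, and 8 of 12 differences were positive, beside 66.4% of all tested genes, with a median log2 difference of 0.087. Aspa, which frees acetate for lipid synthesis, had 38.6, 38.5, 36.5 and 45.8 TPM at ZT20 and 75.3, 68.2 and 73.7 TPM at ZT8, and fell by 0.85 ± 0.13 (SE; limma adjusted p = 0.00673). The groups did not overlap.

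Of 14 genes of repair and immature Schwann cells, 9 passed the filter, 1 was called higher and 0 lower, with a median difference of 0.38. The called gene was Ncam1, an adhesion protein that sensory neurons also make, with 142, 206, 133 and 144 TPM at ZT20 and 106, 86.0 and 71.3 TPM at ZT8 (difference 0.82 ± 0.19 SE, limma adjusted p = 0.0244). The list had 0 genes called higher in limma with no filter, with median-ratio scaling, after the length and GC correction (1 lower), with either marker score as covariate, without ZT20 replicates 3 and 4 or 2, 3 and 4, without ZT20 replicate 1, 3 or 4 alone and without ZT8 replicate 3, and 1 to 3 under the others; 4 of its 9 tested genes had an unadjusted p under 0.05. Gdnf, a growth factor of repair cells, was at or below 0.186 TPM in every library and was not tested.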
